A study of Mus musculus with 8 samples.

Results

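The genes described here are 5 STAT transcription factors (Stat3, Stat4, Stat5a, Stat5b and Stat6) and 5 genes that STATs induce, namely the feedback inhibitors Socs1, Socs2, Socs3 and Cish and the kinase Pim1. They were taken by gene name from the count table, in which all 10 had 1 row each among 56748 genes, and all 10 passed the filter on low counts that left 14723 genes for testing. Messenger RNA was sequenced from peripheral blood mononuclear cells of male wild-type C57BL/6J mice, 8 weeks old at the start of treatment. The fucoidan group (n = 3) received fucoidan, a sulphated polysaccharide of the brown seaweed Undaria pinnatifida, by daily oral gavage at 200 mg/kg for 1 month. The saline group (n = 5) received saline by the same route and for the same time. Both groups ate a standard basal diet, and each library is titled as a separate biological replicate. The treatment text attached to the fucoidan libraries speaks of saline, while their titles and characteristics give fucoidan, which was followed.

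STAT proteins wait in the cytoplasm until a cytokine receptor, through the JAK kinases bound to it, phosphorylates them, after which they pair, enter the nucleus and bind DNA. Among the genes they switch on are the SOCS proteins and CISH, which bind receptors or JAKs and end the signal, so the mRNA of these genes serves as a trace of recent cytokine signalling. In blood, STAT4 answers interleukin-12 in natural killer and T cells, STAT6 answers interleukin-4, STAT3 answers interleukin-6 and interleukin-10, and the STAT5 pair answers interleukin-2, interleukin-7 and interleukin-15. The measurements below are of mRNA and give no phosphorylation of any STAT protein.

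Total counts ran from 13061703 to 16334932 per library. Lymphocyte and monocyte markers were present in every library, and so was RNA of red cells and platelets. Haemoglobin genes took 3.51 to 8.48% of counts after saline and 13.5 to 24.1% after fucoidan, highest in fucoidan replicate 3. Markers of natural killer cells rose in 11 of 12 cases, and their summed level was 307 to 442 CPM after saline and 743 to 1022 CPM after fucoidan. B cell markers fell in 11 of 12 cases, from 4799 to 6196 CPM down to 2817 to 4044 CPM. No marker of these lists was at 0 in all libraries. CPM here means counts per 1000000 after scaling of library sizes by TMM factors, and in a mixed cell preparation fewer cells of a type and less RNA per cell cannot be told apart.

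Fucoidan was compared with saline to ask whether the transcription factors and their feedback genes differed in blood cells after a month of supplementation. Of the 10 genes, 1 rose (Stat4), none fell and 9 were not called, where a call is an adjusted p under 0.05 in edgeR's quasi-likelihood test over all genes. Among all tested genes 13.8% were called, 9.11% higher and 4.65% lower, so the share of these 10 that changed was near the background. At an unadjusted p under 0.05 there were 5 of the 10 (Stat4, Stat5a, Socs2, Socs3 and Cish), against 28.0% of all genes. The groups did not overlap for 3 of the 10 (Stat4, Stat5a and Cish), against 22.6% of all genes. The median log2 fold change of the 10 was 0.19, and that of all genes -0.04. With upper-quartile factors the calls over all genes were 1241 higher and 989 lower in place of 1341 and 684, and Stat5a was then called lower.

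**Figure D1:**
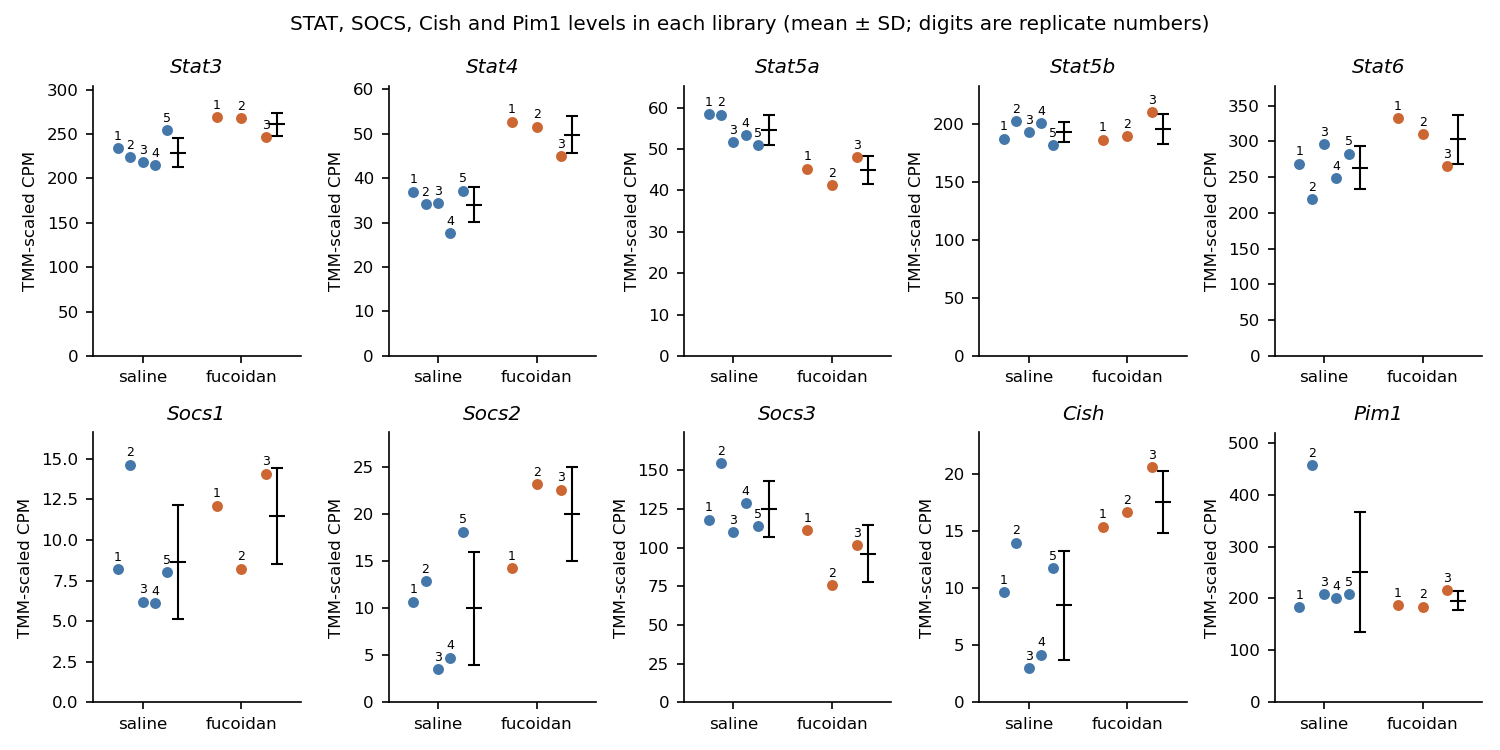
TMM-scaled CPM of each gene (y axes, each from 0) in the 5 saline and 3 fucoidan libraries; points are libraries with their replicate numbers, and the bar beside them is the mean ± SD. Stat4 and Cish lay higher and Stat5a lower in every fucoidan library than in any saline library, and saline replicate 2 stood apart for Pim1 at 456 CPM.

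Stat4, the factor activated by interleukin-12 that drives interferon-gamma production in natural killer and T helper cells, was the gene that rose. The gene lies on GRCm39 chromosome 1, 52026307 to 52146348, plus strand (ENSMUSG00000062939). Its level was 36.9, 34.2, 34.4, 27.6 and 37.1 CPM in saline replicates 1 to 5 and 52.7, 51.5 and 45.0 CPM in fucoidan replicates 1 to 3. The lowest fucoidan library was thus above the highest saline library. The means were 34.0 ± 3.85 CPM (SD, n = 5) and 49.7 ± 4.14 CPM (SD, n = 3). The rise was 1.46-fold, or 0.55 ± 0.115 (SE) on the log2 scale (edgeR adjusted p = 0.0102). Stat4 was called under all 16 other settings tried, including the removal of each library in turn (adjusted p = 0.000600 to 0.0465). A pseudogene and a noncoding gene of the table lie within the bounds of Stat4, with at most 10 counts in any library.

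The genes whose log2 levels ran most like Stat4 over the 8 libraries were S1pr5, a sphingosine phosphate receptor of natural killer cells (Pearson r = 0.98), and the lectin-like receptors Klrk1 (r = 0.97) and Klre1 (r = 0.97). These correlations describe 8 libraries that differ in treatment, and all 3 genes are expressed by natural killer cells. With the group means removed they were 0.91, 0.87 and 0.87. The 3 genes rose by log2 0.90, 1.15 and 1.27, each more than Stat4. The natural killer marker sum, given above, rose in the same libraries, and its part in the Stat4 result was not tested. Klrk1 and Klre1 are themselves among the genes of that sum. T cell markers summed to 986 to 1244 CPM after saline and 1342 to 1738 CPM after fucoidan, with 2 of 12 called higher.

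Stat5a and Stat5b, near-identical factors that serve interleukin-2 family cytokines, erythropoietin and growth hormone, did not run together. Stat5a (chromosome 11, 100750177 to 100775995, plus strand) stood at 58.4, 58.3, 51.6, 53.3 and 51.0 CPM after saline and at 45.3, 41.2 and 47.97 CPM after fucoidan. All fucoidan libraries were below all saline libraries. The log2 fold change was -0.28 (SE 0.0973, 95% interval -0.50 to -0.07) and edgeR's adjusted p was 0.0784, so Stat5a was not called. It was called with upper-quartile factors (adjusted p = 0.0358) and by limma-voom (adjusted p = 0.0459), while over all settings the adjusted p ran from 0.0358 to 0.268. Stat5b (chromosome 11, 100671557 to 100741550, minus strand) stood at 187, 202, 193, 201 and 182 CPM after saline and at 186, 189 and 210.0 CPM after fucoidan. The groups overlapped, and the log2 fold change of 0.02 had a 95% interval of -0.19 to 0.22.

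The ratio of Stat5b to Stat5a, taken within each library on counts divided by gene length, does not depend on how libraries are scaled. It was 4.13, 4.47, 4.82, 4.84 and 4.58 after saline and 5.30, 5.92 and 5.64 after fucoidan. The groups did not overlap, and the ratio was 1.23-fold higher with fucoidan in 3 of 3 libraries. An exact two-sided permutation test, with the smaller tail doubled, gave p = 0.0357 (adjusted over the 2 ratios tested, p = 0.0357). With that doubling no smaller p is possible over the 56 arrangements. The pair was chosen with earlier results of these data known. Stat5a alone already set the groups apart, so this p is not independent of the Stat5a values. The paralogs share long stretches of coding sequence, so reads that match both may have been lost or split in a way the table does not show. Stat5a also overlaps the end of Stat3 on the opposite strand by 72 bases, and the labels do not state whether counting used strand.

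Stat3, the factor of interleukin-6 and interleukin-10 (chromosome 11, 100775924 to 100830366, minus strand), stood at 234, 224, 218, 215 and 254 CPM after saline and at 269, 268 and 246 CPM after fucoidan. Saline replicate 5 lay above fucoidan replicate 3, so the groups overlapped. Its log2 fold change was 0.19 with a 95% interval of -0.03 to 0.40 (edgeR adjusted p = 0.241). Stat6, the factor of interleukin-4 and interleukin-13 (chromosome 10, 127478855 to 127496826, plus strand), stood at 269, 219, 296, 249 and 283 CPM after saline and at 333, 310.5 and 265 CPM after fucoidan. Its groups overlapped too, and the log2 fold change of 0.20 had a 95% interval of -0.07 to 0.48 (edgeR adjusted p = 0.321). Neither was called under any setting. Most like Stat3 over the 8 libraries were Pak2, Naif1 and Pigc (r = 0.97, 0.96 and 0.96). Most like Stat6 were Creld1, Tcp1 and Cybc1 (r = 0.98, 0.98 and 0.97), and none of these 6 genes was called.

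Per kilobase of the gene length in the table, which covers all exons of a gene, the order of mean levels after saline was Pim1, Stat6, Socs3, Stat5b, Stat3, Stat4, Stat5a, Socs1, Cish and Socs2. Pim1 had 74.8 ± 34.2 CPM per kb (SD, n = 5), Stat6 59.8 ± 6.91, Socs3 43.3 ± 6.20, Stat5b 34.8 ± 1.57 and Stat3 24.1 ± 1.66. Stat4 had 8.79 ± 0.994, Stat5a 7.64 ± 0.504, Socs1 2.97 ± 1.20, Cish 1.32 ± 0.742 and Socs2 1.05 ± 0.629. Neighbours in this order overlapped between Pim1 and Stat6, Stat6 and Socs3, Stat4 and Stat5a, Socs1 and Cish, and Cish and Socs2, and the other neighbours were apart in every saline library. The Pim1 mean includes saline replicate 2, at 136 CPM per kb, and the saline medians of Pim1 and Stat6 were 61.8 and 61.1 CPM per kb. After fucoidan Stat6 (68.8 ± 7.82 CPM per kb, SD, n = 3) overlapped Pim1 (58.3 ± 5.20) and Stat5b (35.3 ± 2.32) overlapped Socs3 (33.3 ± 6.36), which in turn overlapped Stat3 (27.4 ± 1.32). Stat4 (12.8 ± 1.07) no longer overlapped Stat5a (6.28 ± 0.475).

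The feedback inhibitors divided into scarce genes (Cish, Socs2 and Socs1) and abundant Socs3. Cish and Socs2 varied widely between saline mice, while the 2.39-fold range of Socs1 rested on saline replicate 2. Sequence is shown for Cish and Socs3 because theirs were the only start-site windows of the 10 genes with the palindromic core of a STAT site, TTCNNNGAA. They are taken from RefSeq on build GRCm38.p6, in sense orientation, with matches in capitals.
Cish, chr9:107296539-107296678, plus strand: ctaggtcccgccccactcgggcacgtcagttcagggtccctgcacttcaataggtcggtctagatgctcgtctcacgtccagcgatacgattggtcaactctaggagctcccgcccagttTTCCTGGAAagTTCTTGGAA
Socs3, chr11:117969427-117969566, minus strand: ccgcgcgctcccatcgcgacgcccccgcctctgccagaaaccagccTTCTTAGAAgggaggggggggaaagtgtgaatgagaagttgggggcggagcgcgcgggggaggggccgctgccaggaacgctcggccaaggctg
Cish holds a pair, at bases 1 to 9 and 12 to 20 from the annotated start, and Socs3 holds a single match at bases -154 to -146. The motif reads the same on both strands, and it was searched in windows of 300 bases, 250 before and 50 after each start. Of 32851 such windows of all genes, 8.30% held at least 1 match and 0.457% at least 2. Of the 10 genes 9 had windows, 13 in all, and Socs2, which had none, was not searched. None of the 13 held the form with a spacer 1 base longer (TTCNNNNGAA), which 6.95% of all windows hold.

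Cish (chromosome 9, 107173225 to 107179983, plus strand) encodes the inhibitor that STAT5 induces after interleukin-2 or interleukin-15, and it limits the response of natural killer and T cells to these cytokines. It stood at 9.62, 13.96, 2.98, 4.16 and 11.7 CPM after saline and at 15.4, 16.6 and 20.6 CPM after fucoidan, from 48 to 248 counts a library. Every fucoidan library was above every saline library, and saline replicates 3 and 4 were far below the other saline libraries. The means were 8.49 ± 4.76 CPM (SD, n = 5) and 17.5 ± 2.72 CPM (SD, n = 3). The log2 fold change of 1.04 (SE 0.402, 95% interval 0.15 to 1.92) was not called by edgeR's quasi-likelihood test (adjusted p = 0.116). DESeq2 called it (adjusted p = 0.0497) and so did limma-voom (adjusted p = 0.0272), while over all settings the adjusted p ran from 0.0272 to 0.396. Noncoding genes of the table that overlap Cish had at most 3 counts in any library.

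Socs2 (chromosome 10, 95221224 to 95253042, minus strand), best known as the brake on growth hormone signalling and another STAT5 target, followed the same libraries. It stood at 10.7, 12.8, 3.53, 4.74 and 18.1 CPM after saline and at 14.3, 23.1 and 22.6 CPM after fucoidan. Saline replicates 3 and 4 were again lowest, and saline replicate 5 lay above fucoidan replicate 1. The log2 fold change was 0.99 (SE 0.426, 95% interval 0.05 to 1.93), and edgeR's adjusted p was 0.156. No other setting called it (adjusted p = 0.0608 to 0.471).

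By Pearson r, Cish and Socs2 were the most alike of the 45 pairs among these genes, with r = 0.97 over the 8 libraries and 0.94 with the group means removed. By Spearman correlation Stat3 and Stat4 came first (0.952), ahead of Cish and Socs2 (0.905). Among saline mice Cish and Socs2 spanned a 4.69-fold and a 5.13-fold range, while Stat5b spanned 1.11-fold and Stat3 1.18-fold. The SD of log2 CPM among saline libraries was 0.958 for Cish and 0.978 for Socs2, larger than in 97.9% and 98.0% of all tested genes. These genes are scarce, and counting error adds to that spread. Their biological coefficients of variation, which leave counting error out, were 0.392 and 0.413, higher than those of 93.0% and 94.6% of genes.

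Across all genes, the levels most like Cish were those of Cd160, a receptor of natural killer and CD8 T cells (r = 0.99), Rgs3, a regulator of G protein signalling (r = 0.99), and the chemokine receptor Cxcr3 (r = 0.99). Those most like Socs2 were Trgc1, a constant region of the gamma T cell receptor chain (r = 0.98), Rcbtb2 (r = 0.98) and again Rgs3 (r = 0.97). Cd160 stood at 16.0, 27.2, 5.15, 8.15 and 23.4 CPM after saline and at 27.8, 34.7 and 44.3 CPM after fucoidan, and it was not called (adjusted p = 0.0994). Saline replicates 3 and 4 were lowest for Cd160, Cxcr3, Rgs3 and Trgc1, as for Cish. The natural killer marker sum, which includes Cd160, was also lowest in these libraries (362 and 307 CPM, against 422 to 442 CPM in the other saline libraries). Fucoidan replicate 1 had the highest natural killer sum (1022 CPM) and the lowest Cish and Socs2 of its group. The T cell marker sum was also lowest in saline replicates 3 and 4 (1079 and 986 CPM). In fucoidan replicates 1 to 3 that sum was 1342, 1362 and 1738 CPM, the same order as Cish. The part of natural killer cells and T cells in the levels of Cish and Socs2 was not tested.

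**Figure D2:**
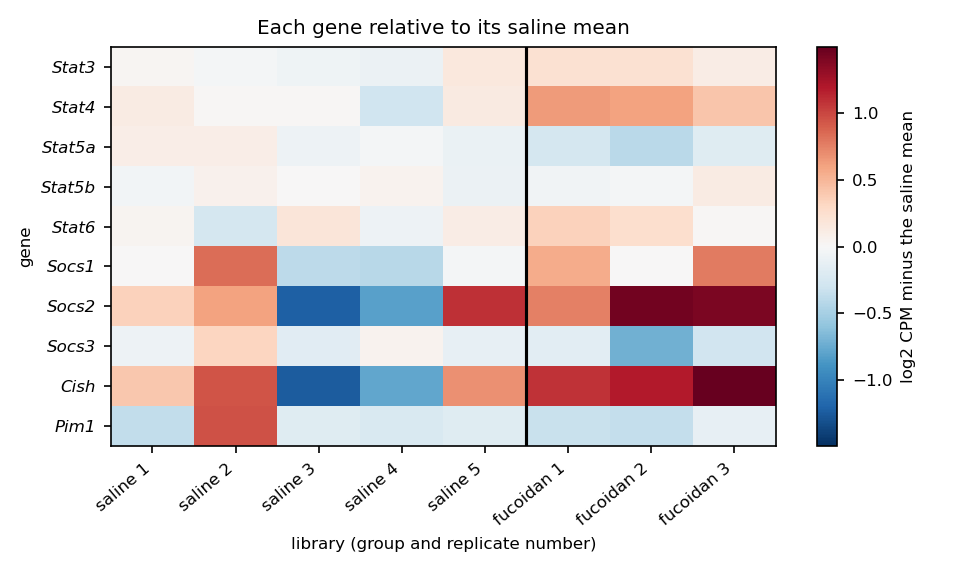
log2 CPM of each gene (rows) in each library (columns) minus that gene's mean over the saline libraries; red is higher and blue lower, and the black line parts saline from fucoidan. Cish and Socs2 were blue in saline replicates 3 and 4 and red in all fucoidan libraries, whereas the Stat5b row stayed near 0.

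Socs1, which binds JAKs directly and restrains interferon-gamma signalling, lies on chromosome 16, 10600104 to 10603400, minus strand. It stood at 8.20, 14.6, 6.20, 6.13 and 8.04 CPM after saline and at 12.1, 8.25 and 14.1 CPM after fucoidan. Saline replicate 2 was above every fucoidan library. The log2 fold change of 0.40 had a 95% interval of -0.23 to 1.03 (edgeR adjusted p = 0.401) and was 0.68 without saline replicate 2 (adjusted p = 0.0576, in a range of 0.0576 to 0.751 over all settings). Most like it were Trim8 (r = 0.93), known to bind SOCS1 protein, Crybg1 (r = 0.93) and the T cell receptor gene Trbv12-2 (r = 0.93), whose reads similar V genes may share.

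Socs3, the inhibitor of gp130 and granulocyte colony-stimulating factor receptors, was the abundant member (chromosome 11, 117856905 to 117860873, minus strand). It stood at 118, 155, 110.1, 129 and 114 CPM after saline and at 111, 75.7 and 102 CPM after fucoidan. Fucoidan replicate 1 lay just above saline replicate 3, so the groups overlapped by that margin. The log2 fold change was -0.38 (SE 0.150, 95% interval -0.71 to -0.05) with an edgeR adjusted p of 0.122, and no setting called it (adjusted p = 0.0676 to 0.382). Without fucoidan replicate 2, its lowest library, the log2 fold change was -0.23. Neutrophil markers, of which 0 of 14 were called, summed to 1003 to 2107 CPM after saline and 1029 to 1301 CPM after fucoidan. Classical monocyte markers, of which 3 of 10 fell, summed to 3592 to 6882 and 3452 to 4092 CPM. Their part in the Socs3 values was not tested. Most like Socs3 were Pccb, the nicotinic acid receptor gene Hcar2 and Cstf3 (r = 0.96, 0.96 and 0.95), and none of them was called.

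The ratio of Socs1 to Socs3 per unit length was 0.0691, 0.0941, 0.0560, 0.0473 and 0.0700 after saline and 0.108, 0.108 and 0.138 after fucoidan. All 3 fucoidan libraries were above all saline libraries. The ratio was 1.79-fold higher, although neither gene was called on its own. The exact two-sided permutation test, with the smaller tail doubled, gave p = 0.0357 (adjusted over the 2 ratios, p = 0.0357). That is the smallest p that 56 arrangements allow with this doubling. The 2 ratios are a choice among the possible pairs of the 10 genes, made with earlier results of these data known, and p was not adjusted over the other pairs.

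Pim1, a serine/threonine kinase that STAT3 and STAT5 induce and that promotes survival, lies on chromosome 17, 29709727 to 29715086, plus strand. It stood at 183, 456, 208, 201 and 208 CPM after saline and at 187, 185 and 216 CPM after fucoidan. A single library, saline replicate 2, was 2.50-fold above the lowest saline library, and the others of both groups lay together. The log2 fold change was -0.36 with a 95% interval of -0.96 to 0.24 (edgeR adjusted p = 0.433), and -0.03 without saline replicate 2 (adjusted p = 0.888, in a range of 0.343 to 0.888). Most like Pim1 were Ing2, the phosphatase subunit gene Ppp1r10 and the AP-1 gene Fosl2 (r = 0.98, 0.97 and 0.97), all highest in saline replicate 2, so these correlations rest on that library.

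**Figure D3:**
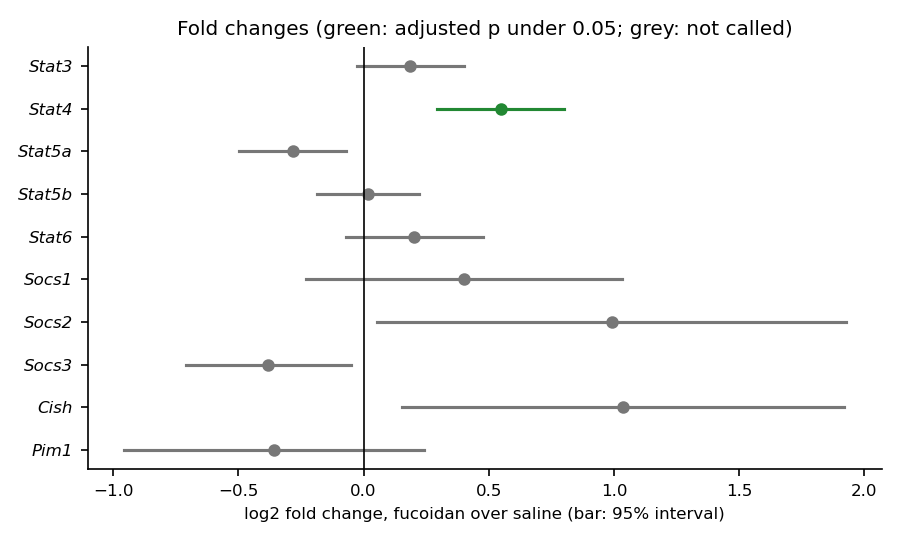
log2 fold change of fucoidan over saline (x axis) for each gene (y axis), with its 95% interval from the edgeR fit; green marks an adjusted p under 0.05. Stat4 alone was called, at 0.55, and the intervals of Cish and Socs2 were the widest.

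Upstream of the STATs, ligands were mostly scarce. Of 25 cytokine genes listed, 9 passed the filter on low counts and none was called by edgeR, with a median log2 fold change of 0.24. The most abundant by the mean over all libraries were Osm, an interleukin-6 family cytokine (74.3 ± 18.4 CPM, SD, n = 5, and 55.6 ± 11.1 CPM, SD, n = 3), and Il12a, a subunit of interleukin-12 (8.67 ± 2.61 and 5.08 ± 1.75 CPM).

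Receptor chains moved in both directions. Of 34 listed, 30 were tested, 6 rose and 2 fell, where 9.11% of all genes were called higher and 4.65% lower. Their median log2 fold change was 0.01, against -0.04 for all genes. Il2rb, the chain through which interleukin-2 and interleukin-15 reach STAT5, stood at 299, 372, 233, 194 and 428 CPM after saline and at 687, 715 and 752 CPM after fucoidan. That is a log2 rise of 1.23 (SE 0.219, edgeR adjusted p = 0.00521), and its lowest saline values were again in replicates 3 and 4. Il7r, the interleukin-7 receptor of T cells, rose by log2 0.77 (SE 0.133). Il5ra, the interleukin-5 receptor chain of eosinophils and some B cells, had 25.9 ± 3.32 CPM (SD, n = 5) after saline and 10.2 ± 1.29 CPM (SD, n = 3) after fucoidan, and its log2 fold change was -1.34 (SE 0.148). Further risers were Il12rb2, the signalling chain of the interleukin-12 receptor upstream of STAT4, Epor and Il2ra, and the other gene that fell was Il9r. Il12rb2 is given here because of its place before Stat4, a choice made after its values were seen. Its level was 9.34 ± 3.99 CPM (SD, n = 5) after saline and 28.0 ± 2.53 CPM (SD, n = 3) after fucoidan, and Il2rg, the shared gamma chain, stood at 153 ± 10.03 and 155 ± 7.48 CPM. In these libraries 11 of 12 natural killer, 2 of 12 T cell and 12 of 13 erythroid markers rose, and 11 of 12 B cell markers fell. The part of these cells in the receptor values was not tested.

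Among the JAK kinases none of 4 was called by edgeR. Jak2, the kinase of the erythropoietin receptor, stood at 178, 196, 197, 176 and 171 CPM after saline and at 201, 229 and 278 CPM after fucoidan, without overlap and highest in fucoidan replicate 3. Its log2 fold change was 0.36 (SE 0.117, adjusted p = 0.0645), called by DESeq2 (adjusted p = 0.0293) and without fucoidan replicate 1 (adjusted p = 0.0426). Jak1, the most abundant of the 4, stood at 739 ± 34.9 CPM (SD, n = 5) and 824 ± 32.3 CPM (SD, n = 3). Platelet markers rose in 11 of 11 tested cases, from sums of 2364 to 5029 CPM to sums of 7159 to 15299 CPM, and erythroid markers in 12 of 13, and their part in the values of Jak2 was not tested.

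Stat2 (84.5 ± 6.52 CPM, SD, n = 5, and 73.2 ± 6.73 CPM, SD, n = 3) was not called, and of Socs4 to Socs7 none was, with a median log2 fold change of 0.17. Pim3, a relative of Pim1, stood at 52.7, 160.0, 93.0, 94.6 and 76.3 CPM after saline and at 48.0, 43.1 and 37.5 CPM after fucoidan. It fell by 1.15 on the log2 scale (SE 0.289, edgeR adjusted p = 0.0231). With the replicate number as a block it was not called (log2 -1.12, adjusted p = 0.186), nor without saline replicate 4 or any of the 3 fucoidan libraries (adjusted p = 0.0560 to 0.142), nor with no filter on low counts (adjusted p = 0.150). Other brakes on the pathway, such as phosphatases, PIAS proteins and the CBL ligases, counted 16 tested genes, of which 2 rose and none fell. Among all genes 9.11% were called higher and 4.65% lower. The median log2 fold change of these brakes was 0.07. Ptpn11, the phosphatase SHP2, rose to 396 ± 152 CPM (SD, n = 3) over 198 ± 26.1 CPM (SD, n = 5) with saline, highest in fucoidan replicate 3. Its log2 fold change was 1.00, and 0.65 without that library, which also had the highest erythroid and platelet marker sums (381392 and 15299 CPM), whose part in the result was not tested. Sh2b3, the adaptor LNK that restrains JAK2, rose by log2 0.46 (SE 0.133, adjusted p = 0.0438), but was not called with the replicate block (log2 0.34, adjusted p = 0.123). Nor was Sh2b3 called on leaving out saline replicate 4, saline replicate 5, fucoidan replicate 2 or fucoidan replicate 3 (adjusted p = 0.0730 to 0.194), nor with upper-quartile factors (adjusted p = 0.0568).

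**Figure D4:**
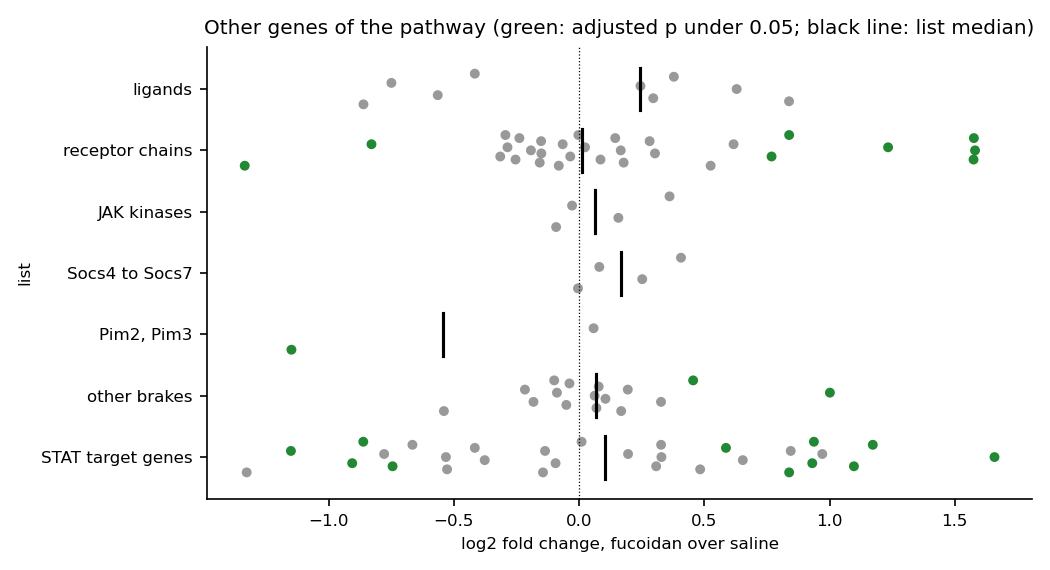
log2 fold change of fucoidan over saline (x axis) for the tested genes of 7 lists of pathway genes (y axis); green points have an adjusted p under 0.05, and black lines are list medians. Called genes lay on both sides of 0 among receptor chains and STAT target genes, and none was called among ligands, JAK kinases or Socs4 to Socs7.

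Known STAT target genes moved in both directions. Of 31 listed, 30 were tested, 7 rose and 4 fell, where 9.11% of all genes were called higher and 4.65% lower. Their median log2 fold change was 0.10, against -0.04 for all genes. Ccnd2, a cyclin that STAT5 induces, stood at 99.3, 132, 96.1, 75.2 and 178 CPM after saline and at 250.3, 264 and 272 CPM after fucoidan, a log2 rise of 1.17 (SE 0.223). Ccnd3 rose by log2 0.94 (SE 0.148) and Bcl2l1, a survival gene of red cell precursors and platelets, by log2 1.66 (SE 0.269). Fcer2a, the CD23 gene that STAT6 induces in B cells, was at 376 ± 76.3 CPM (SD, n = 5) with saline and fell to 169 ± 25.5 CPM (SD, n = 3), in the libraries in which the B cell markers also fell. Fcer2a is itself among the B cell markers counted and summed here, so its fall is part of theirs. The other risers were Id2, Batf, Tbx21 and Il2ra, and the others that fell were Ccr7, Fos and Junb. Over all these lists 21 genes were called, and 12 without fucoidan replicate 3. Over all tested genes 13.8% were called, 2025 in number, and 928 without that library.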

How the data were processed

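The authors deposited raw whole-number counts for 56748 genes in 8 libraries. Per the submitters' processing notes, cutadapt 4.0, Trimmomatic 0.39, HISAT2 2.2.1 and GRCm39 (mm39) were used; the counter, annotation and use of strand: not given in the sources used here. Gene lengths and coordinates are those of the deposited table. Genes, lists and tests were chosen with earlier results of these data known. Named were all 10 genes, up to 4 called genes of each pathway list (otherwise the 2 most abundant), and the 3 genes of at least 5 CPM most like each of the 10 by Pearson r; a few of these are not reported here.

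The filter was filterByExpr, scaling TMM and the test edgeR 4.0.16's robust quasi-likelihood test (R 4.3.3) over 14723 genes, Benjamini-Hochberg adjusted. SE is the absolute log2 fold change over the square root of F, and intervals use the fit's degrees of freedom. Log2 CPM used a prior count of 2. Ratios were tested with scipy 1.17.1. The procedure was tested on simulated data. Alternatives were DESeq2 1.42.0, limma-voom (limma 3.58.1), other scalings and filters, the replicate block and each library left out. No 2 libraries agreed within sampling noise. With group means removed, libraries sharing a replicate number correlated at 0.177, 0.233 and 0.144, and other saline and fucoidan pairs at -0.261 to 0.144. No label says that a replicate number marks a shared cage, day or animal, so the main fit did not pair the libraries. The numbers served as pairs only in the replicate block and in the paired differences of the ratios. All libraries carry 1 batch date.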

Additional observations from a re-analysis of the deposited data

Results flagged for a closer look

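In saline replicate 2, Pim1 stood at 456 CPM, where the next saline library had 208 CPM, and Socs1 at 14.6 CPM, where the next had 8.20 CPM. Each gap took more than 0.71 of the range of the 5 saline libraries (0.906 and 0.756). That is the 95% limit of Dixon's test, which chance passes in about 1 of 20 groups, and 31 groups were examined.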

How the results depend on the processing

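Of the 10 genes, 1 was called by edgeR and 1 under every removal of 1 library (range 1 to 1), with median-of-ratios factors, with haemoglobin genes left out of the scaling, with both other filters and with the replicate block. The count was 2 with upper-quartile factors (Stat4 and Stat5a), 2 with DESeq2 (Stat4 and Cish) and 3 with limma-voom (all of these); the cause was not tested. Over all genes the count ran from 928 to 2224 with 1 library left out, 928 without fucoidan replicate 3 and 1291 without saline replicate 4, and was 1561 with the replicate block. Over the other pathway genes it ran from 12 to 24, and was 18 with the block. The block ended the calls of Pim3 and Sh2b3 and changed no other call among the 29 genes given a fold change under every setting. In paired differences of like-numbered libraries the log2 ratio of Stat5b to Stat5a changed by 0.33 and that of Socs1 to Socs3 by 0.72. With 1 library left out these were 0.26 to 0.34 and 0.72 to 0.97. They are given as values without a test, since such designs cannot reach the threshold in the two-sided tests used. Of 464 values of single genes under other settings, 446 stayed on the same side of the threshold, 12 lost a call, 6 gained one, and 0 called values reversed. Depth limits Cish, Socs1 and Socs2, which had as few as 48, 100 and 57 counts in a library.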

Other observations

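Saline replicate 2, which was highest for Pim1 and Socs1, was also the highest saline library for several other genes of the lists, named here after their values were seen. Irf4, a transcription factor of activated lymphocytes, stood at 211 CPM there and at 77.8 to 107 CPM in the other saline libraries. Irf1, an interferon-induced factor, stood at 194 CPM there and at 82.0 to 116 CPM in the others. Junb stood at 3108 CPM there and at 1777 to 2349 CPM in the others, while Fos, at 511 CPM, lay within their range of 494 to 546 CPM. Ppp1r10 stood at 235 CPM there and at 67.8 to 80.8 CPM in all 7 other libraries.

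Tbx21, the transcription factor T-bet of natural killer and type 1 helper T cells, showed the same low saline replicates as Cish and Socs2, with 14.6 CPM in each of saline replicates 3 and 4, 30.3 to 40.5 CPM in the other saline libraries and 49.1 to 64.7 CPM after fucoidan.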
